A study of Homo sapiens with 4 samples.

Results

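TRPC channels and the genes of store-operated calcium entry were followed in TC-71, an established Ewing sarcoma (EWS) cell line, with and without exosomes (EXOs) from CD99-silenced cells. The set was named as 9 genes: the TRPC subunits TRPC1, TRPC4, TRPC5 and TRPC6, the pore genes ORAI1, ORAI2 and ORAI3, and the calcium sensors STIM1 and STIM2. It was chosen by the measured fall of TRPC4, which is among the largest falls of the same comparison, so the values of TRPC4 and its family are given as a description, without p values. A gene was measured where a row of the table, called a transcript cluster in the study's methods, carried its symbol alone, which held for 8 of the 9 genes, each with 1 cluster, of 22036 gene symbols and 67539 transcript clusters in all. STIM1 had 0 clusters of its own, because its cluster is also named for a microRNA, and it was not analysed here. The IDs of all rows start with JUC (31569 rows, among them those of the 8 genes) or PSR (35970 rows), which look like names of exon junctions and probe sets, so it is not settled whether a signal stands for a whole gene or for a stretch of it.

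The 4 arrays (GeneChip Human Transcriptome Array 2.0) held RNA of 2 untreated TC-71 samples (replicates A and B) and of 2 TC-71 samples given EXOs from TC-71 cells stably silenced for CD99 (named C and D, the TC-71 + TC-CD99neg EXOs group). The exposure lasted 24 h. The study's methods give a dose of 10 µg for 5000 recipient cells, without serum, for its functional assays. The array section of the methods does not repeat the dose or the medium. The untreated arrays received no EXOs from any donor, so the arrival of vesicles and their CD99neg origin cannot be told apart, and neither can a difference of medium, since the medium of the untreated arrays is not given in the sources used here. Recipients and EXO donors derive from the same cell line, and the arrays are labelled as biological replicates without naming separate cultures or days. The p values and standard errors from limma therefore reflect only spread among these 4 arrays. For each cluster, limma combined its own spread (2 residual degrees of freedom) with a variance estimated over all clusters (2.59 prior degrees of freedom). All 9 Ewing sarcoma markers examined had a cluster, with mean signals between 6.65 and 9.99 in untreated cells. Of them 1, NR0B1, was called lower (log2 difference -0.62, adjusted p = 0.0137 from limma), where 2.1% of all gene symbols were called in either direction. Without regard to the fold, 3 of the 9 passed the adjusted p toward higher and 2 toward lower. Of all 67539 clusters, with or without a gene symbol, 6550 passed. The higher markers were BCL11B, CD99 and NKX2-2 (log2 differences 0.42, 0.29 and 0.23, adjusted p = 0.0129, 0.0231 and 0.0374 from limma). The lower markers were NR0B1 and STEAP1 (log2 difference of STEAP1 -0.56, adjusted p = 0.0141 from limma). For CD99, the study itself reported no significant change in TC-71 cells given CD99neg EXOs, by qPCR and by flow cytometry. Of 20 markers of leukocytes, endothelium, epithelium, muscle and fibroblasts, 19 had a cluster and 0 were called by limma at a fold of 1.5, with 1 at an unadjusted p under 0.05. That 1 was DCN, a fibroblast marker, which passed the adjusted p (0.0120) and had a log2 difference of 0.52, just under the fold of 1.5, and the part of such markers in the results was not tested. Over all gene symbols, 28.8% had an unadjusted p under 0.05, the background for this and later counts of that kind.

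TRPC subunits assemble into nonselective cation channels of the plasma membrane that admit calcium and sodium when receptors activate phospholipase C. Store-operated entry is a related route: when the endoplasmic reticulum (ER) runs out of calcium, STIM proteins in its membrane sense the loss, move to contacts with the plasma membrane and open ORAI pores. The calcium that enters refills the ER and activates calmodulin, calcineurin and NFAT transcription factors, and TRPC1 has been described as part of some store-operated channels.

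With CD99neg EXOs the signal of TRPC4 was 2.14-fold lower, whereas the other 7 genes of the set differed by less than a fold of 1.5. TRPC4 encodes a receptor-operated TRPC subunit closely related to TRPC5. Its log2 signal was 7.15 on array A and 7.22 on array B, and 6.01 on array C and 6.16 on array D. Both exposed arrays lay below both untreated arrays, by at least 0.98 and at most 1.21, while A and B differed by 0.07 and C and D by 0.16. The group means were 7.18 ± 0.05 without EXOs and 6.09 ± 0.11 with them (SD over n = 2 arrays). The log2 difference, always taken as the exposed minus the untreated mean, was -1.10 (standard error 0.07 from limma). Among 22036 gene symbols, 17 had a larger fall than TRPC4, and among all 67539 clusters, named or not, 113 had.

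**Figure D1:**
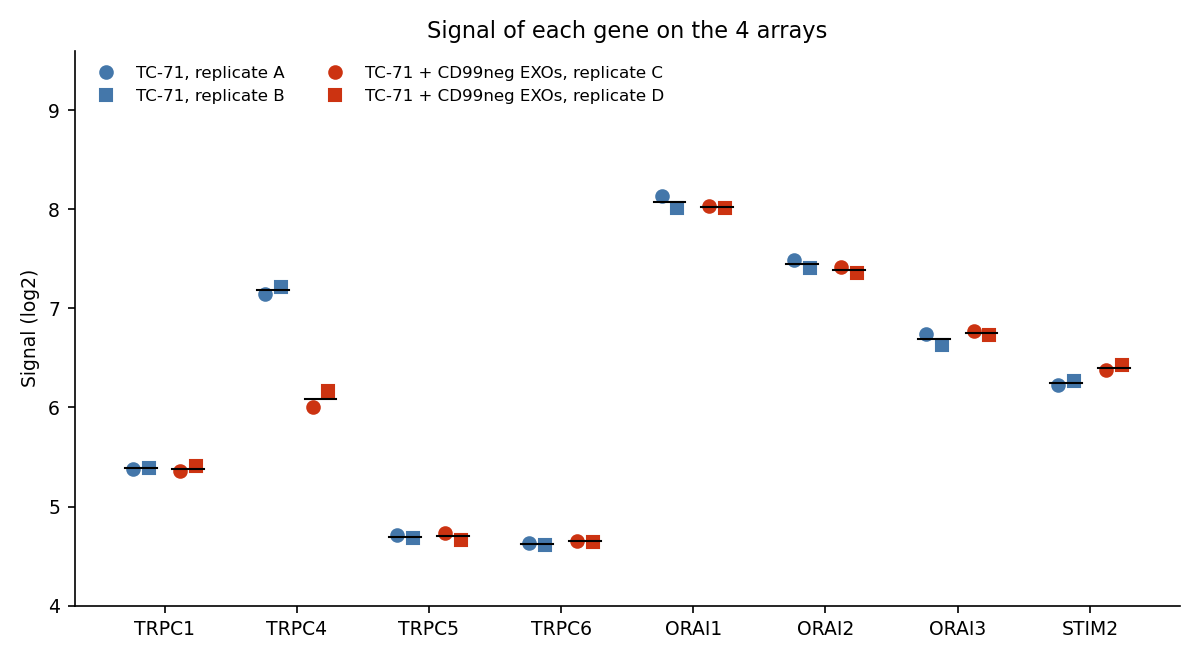
Log2 signal of the 8 measured genes on each of the 4 arrays: blue points are untreated TC-71 (circle A, square B), red points TC-71 + CD99neg EXOs (circle C, square D), and black lines are group means. TRPC4 is at 7.15 and 7.22 without and at 6.01 and 6.16 with EXOs, and for the other genes both groups lie close together. Signals of different genes come from different probes and cannot be ranked against each other.

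The rule for a call required a fold of 1.5 or more together with a limma adjusted p no higher than 0.05. By this rule 1 of the 8 genes was called, TRPC4, toward lower. Among all clusters 2.59% were called, 1.04% toward lower, and of the gene symbols 2.1% were called. Since TRPC4 chose the set, nothing is read from that count. With the variance of each cluster taken alone, without the moderation by limma, 0 of the 67539 clusters were called. The median log2 difference of the 8 genes was 0.00, beside 0.01 over all clusters.

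The other TRPC subunits gave low and steady signals. TRPC1, a subunit that mostly works together with other TRPC proteins, was at 5.38 and 5.39 on the untreated and at 5.36 and 5.41 on the exposed arrays, with a log2 difference of 0.00 (standard error 0.04). The exposed values enclosed the untreated ones. TRPC5, the closest relative of TRPC4, was at 4.71 and 4.68 and then at 4.74 and 4.66, again with overlapping groups and a log2 difference of 0.00 (standard error 0.04). TRPC6, which is opened by diacylglycerol, was at 4.63 and 4.61 and then at 4.65 and 4.64, a log2 difference of 0.03 (standard error 0.04). Its groups did not overlap, but only 0.01 separated the nearest arrays. For comparison, the lowest signal of any cluster was between 4.27 and 4.31 on the 4 arrays and the array medians were between 5.38 and 5.45, so TRPC5 and TRPC6 lay close to the lower end of the scale, where a fall could hardly have been measured. The 4 measured markers of leukocytes, cells that this line does not contain, had mean signals between 4.54 and 5.51 in untreated cells. That range takes in TRPC1, TRPC5 and TRPC6. Over all 19 measured markers of other cell types the means lay between 4.52 and 7.37, a range that also takes in TRPC4, ORAI3 and STIM2. Signals of different genes come from different probes, so such a comparison does not settle which genes are expressed.

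The ORAI genes, which encode the pore subunits of the calcium release-activated calcium channel, differed little between the groups. ORAI1, the main pore subunit in most cells, was at 8.14 and 8.01 on the untreated and at 8.03 and 8.01 on the exposed arrays, a log2 difference of -0.05 (standard error 0.06). ORAI2 was at 7.49 and 7.40 and then at 7.42 and 7.35, a log2 difference of -0.06 (standard error 0.05). ORAI3 was at 6.74 and 6.63 and then at 6.78 and 6.73, a log2 difference of 0.07 (standard error 0.05). In each of the 3 genes the groups overlapped, and in each array A was above array B and array C above array D.

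STIM2, the ER sensor that responds to small losses of stored calcium, was at 6.23 and 6.27 on the untreated and at 6.37 and 6.42 on the exposed arrays. Both exposed arrays were above both untreated arrays, with a log2 difference of 0.15 (standard error 0.04), which is a fold of 1.11 and was not called. It was the largest difference of the set after TRPC4. Groups did not overlap for 3 of the 8 genes, TRPC4, TRPC6 and STIM2. With only 2 arrays a group this is common: 47.9% of all clusters had groups that did not overlap.

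**Figure D2:**
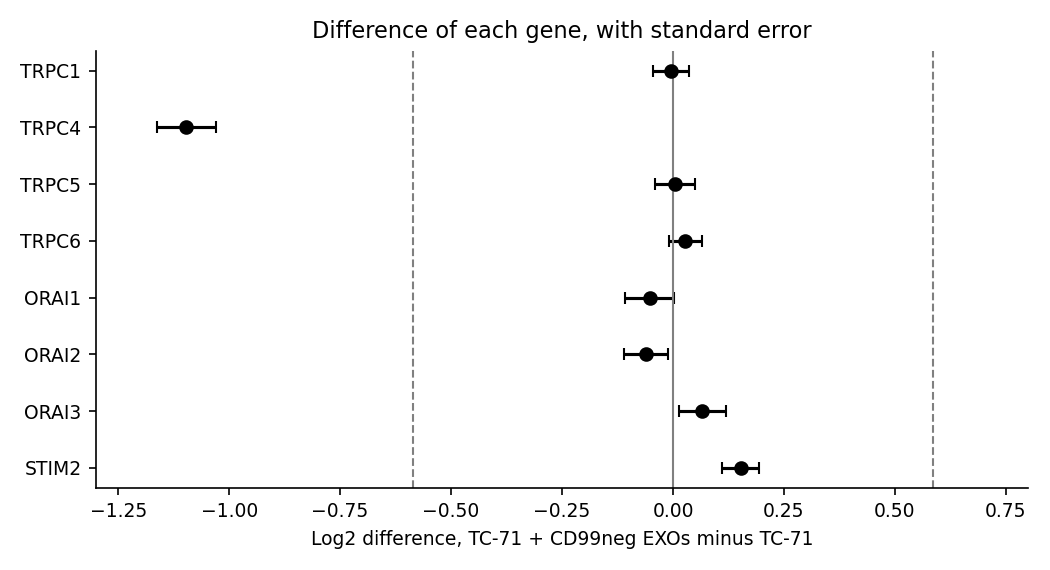
Log2 difference (TC-71 + CD99neg EXOs minus TC-71) of the 8 genes, with the standard error from limma as bars and dashed lines at a fold of 1.5 in either direction. TRPC4 lies at -1.10 and the other 7 genes lie between -0.06 and 0.15.

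The bases upstream of the TRPC4 start are shown because TRPC4 is the gene that the set was selected on. RefSeq (GRCh38.p14) places this window of 250 bases at chr13:37869773-37870022 on the minus strand, ending 1 base before the first base of the gene. Capitals mark matches to the GC box (GGGCGG, or CCGCCC on the other strand) and to the core of NFAT sites (GGAAA, or TTTCC on the other strand).
TRPC4: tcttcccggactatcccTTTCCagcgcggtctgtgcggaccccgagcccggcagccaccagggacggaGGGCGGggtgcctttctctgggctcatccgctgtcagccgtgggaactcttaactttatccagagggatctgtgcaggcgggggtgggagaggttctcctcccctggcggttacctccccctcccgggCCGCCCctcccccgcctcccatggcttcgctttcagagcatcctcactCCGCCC
The window held 3 GC boxes and 1 NFAT core. Windows of the same length at 35116 RefSeq starts held at least 1 GC box in 42.6% and at least 1 NFAT core in 55.6%. Its GC content was 67.2%, against a median of 58% over all windows. The AP-1 motif (TGANTCA, found in 6.57% of windows), the EGR motif (GCGNGGGCG, 8.41%) and the cyclic AMP response element (TGACGTCA, 1.65%), each searched on both strands, had 0 matches in it. Of the 8 genes 6 had such a window, and among these only that of ORAI2 held an EGR motif and 0 held an AP-1 motif. GC boxes were also found upstream of TRPC1, ORAI2 and STIM2 (2 each). NFAT cores were also found upstream of TRPC1 (1) and TRPC6 (2). TRPC1 had a further window with 0 of either. These are matches of letters and not measured sites.

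The protein-coding genes next to TRPC4 on chromosome 13 in the RefSeq order are POSTN and UFM1, which were looked up after the values of TRPC4 were known. POSTN, which encodes the matrix protein periostin, was at 4.48 and 4.46 and then at 4.46 and 4.46, near the lower end of the scale. UFM1, a ubiquitin-like modifier, was at 7.78 and 7.92 on the untreated and at 7.51 and 7.47 on the exposed arrays. Its log2 difference of -0.35 (standard error 0.06, adjusted p = 0.0350 from limma) was below the fold of 1.5, so it was not called.

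The 5 genes whose signals over the 4 arrays, each centred on its own mean, lay nearest those of TRPC4 were CHRDL1, HSPA4L, RNU11, PRPH and KTN1. CHRDL1, which is secreted and inhibits bone morphogenetic proteins, was the nearest, at a Euclidean distance of 0.03 on the log2 scale. It was at 7.52 and 7.61 on the untreated and at 6.42 and 6.54 on the exposed arrays. HSPA4L, a chaperone related to Hsp70, followed at a distance of 0.08, RNU11, the U11 RNA of the minor spliceosome, at 0.09, PRPH, a neuronal intermediate filament, at 0.10, and KTN1, the ER protein kinectin, at 0.10. Their log2 differences lay between -1.14 and -1.06. The likeness rests on 4 arrays in 2 groups, so any gene with a fall of similar size would lie close.

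**Figure D3:**
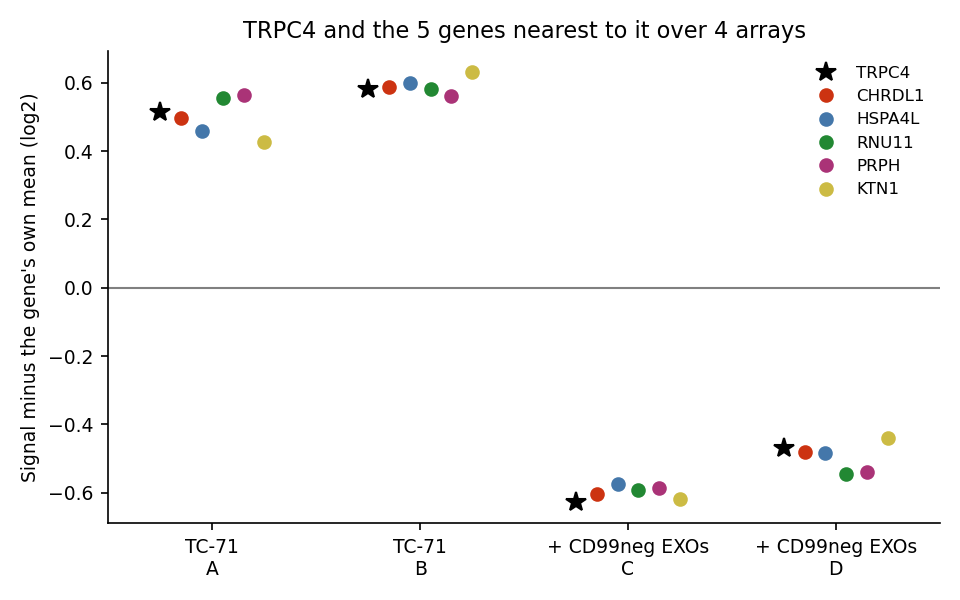
Log2 signal minus the mean of each gene on the 4 arrays for TRPC4 (star) and the 5 nearest genes (circles). All are above 0 on the 2 untreated arrays and below 0 on the 2 exposed arrays, and the nearest gene, CHRDL1, lies at a distance of 0.03 from TRPC4.

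Around this set, 162 of 170 other calcium genes from 9 lists had a cluster. Of these, 4 were called higher, 2 lower and 156 were not called, which is 3.70% against 2.1% of all gene symbols, and their median log2 difference was 0.00. The 6 called genes were spread over 5 of the 9 lists. HOMER2, CAMK1D, GNA11 and SMDT1 were the higher ones, and JPH1 and CALR the lower ones.

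Among the other TRP channels, of 23 listed genes 22 had a cluster and 0 were called by limma at a fold of 1.5, with 4 of the 22 at an unadjusted p under 0.05 (28.8% of all gene symbols). The members with the largest differences were PKD2, a cation channel of cilia and ER, with a log2 difference of 0.42 (adjusted p = 0.0153), and TRPM7, a channel fused to a kinase, with -0.28 (adjusted p = 0.167). TRPC7, another subunit opened by diacylglycerol, was at 4.76 and 4.72 and then at 4.77 and 4.74.

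Among 19 measured regulators of STIM and ORAI and proteins of contacts between ER and plasma membrane, HOMER2 rose and JPH1 fell. HOMER2, a scaffold that tethers TRPC channels, receptors and inositol trisphosphate receptors, was at 7.08 and 6.95 on the untreated and at 7.70 and 7.96 on the exposed arrays, a log2 difference of 0.81 (standard error 0.10, adjusted p = 0.0177 from limma). JPH1, which encodes a junctophilin that holds the ER close to the plasma membrane, was at 8.85 and 8.96 and then at 8.18 and 8.19, a log2 difference of -0.72 (standard error 0.05, adjusted p = 0.00687). The related HOMER1, HOMER3, JPH2, JPH3 and JPH4 had log2 differences between -0.04 and 0.05 and were not called. The call of HOMER2 was lost without replicate A (log2 difference 0.88) or without replicate B (0.75).

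Of 12 measured binding partners of TRPC proteins 0 were called by limma at a fold of 1.5, 6 had an unadjusted p under 0.05 (28.8% of all gene symbols), and the median log2 difference of the list was -0.10. FKBP5 and FKBP4, immunophilins that bind the Hsp90 chaperone and have been described as TRPC partners, had log2 differences of -0.47 and -0.46 (adjusted p = 0.0129 and 0.00827), below the fold required. TRPC4AP, an adaptor named for its binding to TRPC4, had -0.10 (adjusted p = 0.296).

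On the path from receptors to phospholipase C, GNA11 was the called gene among 17. GNA11, an alpha subunit of the Gq family, was at 9.27 and 9.23 on the untreated and at 9.91 and 9.89 on the exposed arrays, a log2 difference of 0.65 (standard error 0.04, adjusted p = 0.00549 from limma). PLCG1, the phospholipase C of receptor tyrosine kinases, had a log2 difference of -0.29 (adjusted p = 0.0179) and was not called.

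Among 17 genes of ER calcium release and refill, CALR fell. CALR encodes calreticulin, a chaperone that also stores calcium in the ER, and was at 11.87 and 11.92 on the untreated and at 11.24 and 11.28 on the exposed arrays, a log2 difference of -0.63 (standard error 0.04, adjusted p = 0.00609 from limma). Its call was lost with cyclic loess normalization (log2 difference -0.56). ITPR3, an inositol trisphosphate receptor, had -0.17 (adjusted p = 0.0672), and ATP2A2, the common calcium pump of the ER, had -0.11 (adjusted p = 0.514).

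In the 11 measured genes of mitochondrial calcium uptake, SMDT1 was called higher. SMDT1, the EMRE subunit of the mitochondrial calcium uniporter, was at 7.18 and 7.33 and then at 7.73 and 8.01, a log2 difference of 0.61 (standard error 0.11, adjusted p = 0.0435 from limma). This is near both thresholds, and the call was lost with median centring (0.57), with cyclic loess (0.62), and without replicate A (0.54), B (0.69) or D (0.47). MCUR1, a regulator of the uniporter, had -0.41 (adjusted p = 0.0264), and MCU, its pore, had 0.03 (adjusted p = 0.837).

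Of 25 measured genes for calmodulin targets, calcineurin, NFAT factors and calmodulin kinases, CAMK1D was called. CAMK1D, a calcium and calmodulin-dependent kinase, was at 6.98 and 7.05 on the untreated and at 7.86 and 7.71 on the exposed arrays, a log2 difference of 0.77 (standard error 0.06, adjusted p = 0.00878 from limma). RCAN3, of a family that regulates calcineurin, had -0.39 (adjusted p = 0.0182) and was not called. RCAN1, an NFAT target in many cells, had a log2 difference of -0.03 (adjusted p = 0.769). The NFAT genes NFATC1, NFATC2, NFATC3, NFATC4 and NFAT5 had 0.06, -0.09, 0.04, 0.04 and 0.27. Of the calcineurin genes, PPP3CA, PPP3CB and PPP3CC had -0.19, -0.28 and -0.23, the last with an adjusted p of 0.0294 from limma. PPP3R1 and PPP3R2 had 0.02 and 0.03, and none of these genes was called.

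In the other 2 lists 0 genes were called by limma at a fold of 1.5, with 6 voltage-gated channel genes and 2 extrusion genes at an unadjusted p under 0.05 (28.8% of all gene symbols). Of 25 measured subunits of voltage-gated calcium channels, CACNA2D1 and CACNB2, both auxiliary subunits, had the largest differences, 0.42 (adjusted p = 0.0380) and 0.32 (adjusted p = 0.0144). Of 14 genes of calcium extrusion and Golgi pumps, the exchanger SLC24A3 had 0.34 (adjusted p = 0.0237) and the plasma membrane pump ATP2B1 had -0.23 (adjusted p = 0.200).

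**Figure D4:**
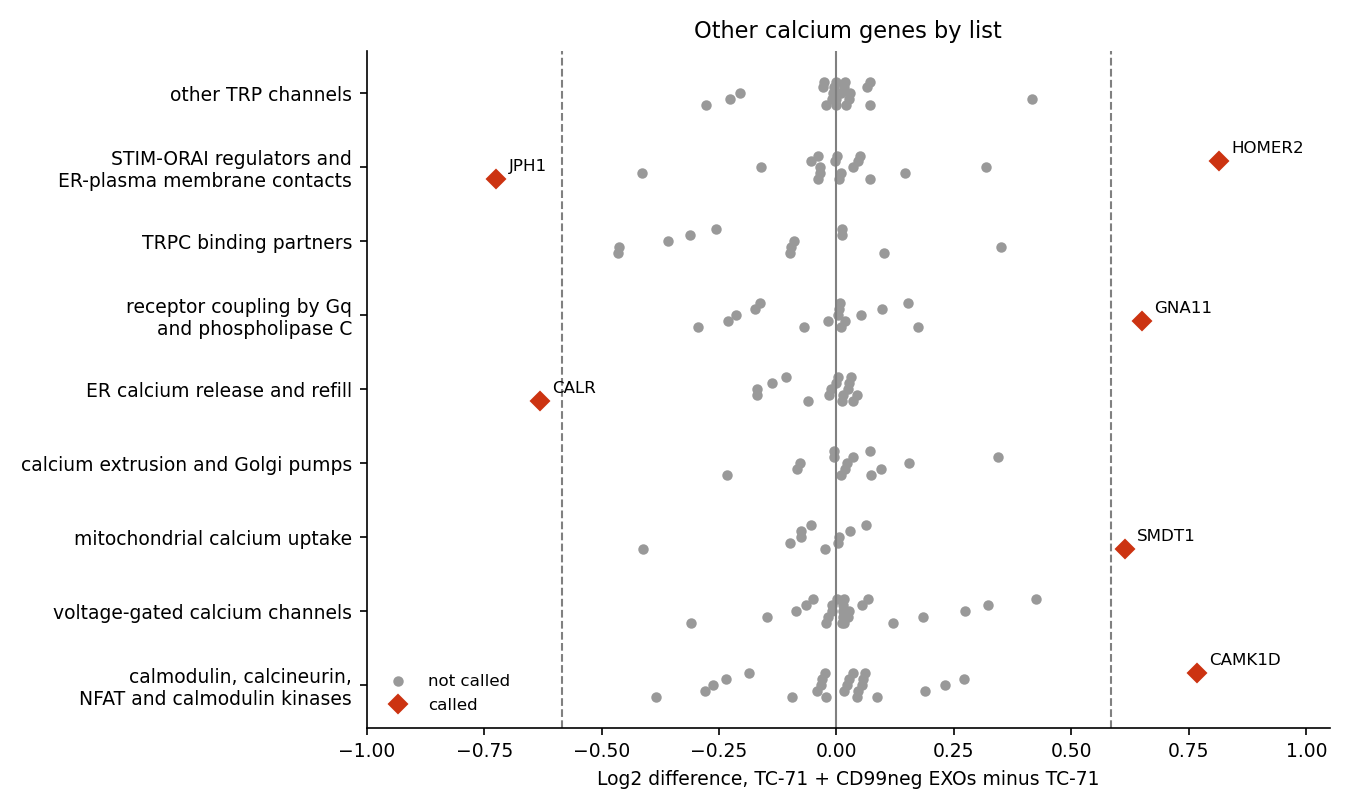
Log2 difference (TC-71 + CD99neg EXOs minus TC-71) of the 162 other calcium genes in 9 lists: grey circles were not called, red diamonds were called, and dashed lines mark a fold of 1.5. The 6 called genes are HOMER2, CAMK1D, GNA11 and SMDT1 on the higher side and JPH1 and CALR on the lower side.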

How the data were processed

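The authors deposited log2 signals, which the methods describe as made in GeneSpring by ExonRMA16 with quantile normalization and no baseline subtracted. The deposited arrays did not share exactly the same distribution: their medians lay between 5.38 and 5.45 and their highest signals between 13.59 and 13.79. The table has 67539 rows, called transcript clusters in the methods although their IDs (JUC, PSR) look like those of junctions and probe sets, which could not be settled. As the sources used here name no genome build for the array, cluster coordinates are left out. Names came from the platform annotation: 23383 had 1 symbol, 1225 several and 42931 none. For the lists, old symbols were updated through RefSeq (GRCh38.p14) names in 2566 rows, and where a symbol had several clusters, the brightest by the mean of the 4 arrays stood for it.

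The group difference was fitted by lmFit and eBayes of limma 3.58.1 (R 4.3.3) to all clusters, with Benjamini-Hochberg adjustment. Residual degrees of freedom were 2, and the prior added 2.59. An exact permutation test of 2 against 2 arrays could not pass the threshold. The functions were tested on simulated data. Figures were drawn with matplotlib 3.10.9. The number of arrays limits the precision.

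The members and lists were chosen with earlier results of these data known. Genes named are all members, every called gene and the 2 largest differences of each calcium list, and the 5 genes nearest TRPC4; related genes and markers beyond these were chosen after their values were seen. Alternatives covered the variance model, the scale between arrays, a filter on dim clusters, the fold limit, the choice of row and each array left out.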

Additional observations from a re-analysis of the deposited data

How the results depend on the processing

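The log2 difference of TRPC4 lay between -1.14 and -1.12 with median centring, another quantile normalization and cyclic loess, and between -1.17 and -1.02 with each array left out in turn. The mean over rows changes nothing here, since TRPC4 has 1 row. Without moderation of the variances 0 clusters, 0 genes of the set and 0 genes of the calcium lists passed. With no fold limit 6550 of all 67539 clusters, with or without a gene symbol, and 27 of the 162 measured genes of the calcium lists passed. The calcium lists had between 4 and 6 called genes, and all clusters between 1390 and 1832, with each array left out, where the remaining array of a group is assumed to vary like the other group. As the set was selected on TRPC4, its own call is no sign of stability. Calls were 865 higher and 867 lower with median centring, against 1043 and 703 as reported, and 425 were lower without replicate B.
The small differences of TRPC1, TRPC5, TRPC6 and STIM2 moved by more than their replicate spread under some scalings, to -0.05, -0.04, -0.02 and 0.11 with median centring, so no direction is given for TRPC1, TRPC5 or TRPC6. No paired analysis was possible because the replicate letters of the untreated arrays (A and B) and of the exposed arrays (C and D) are not shared. Signals near the lower end of the scale, such as those of TRPC5 and TRPC6, limit what could be seen there.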
